A study of Drosophila melanogaster with 8 samples.

Results

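The boundary between the M10–11 and M12–13 subsections lies in the posterior midgut of the third instar larva of *Drosophila melanogaster*, next to the end of the organ. It was examined by comparing the RNA sequencing libraries of the neighboring subsections, 1 library each, across the 4051 genes with at least 10 FPKM in either, of 14207 named entries in the deposited table. FPKM, the unit of the deposited values, is a count of sequenced fragments corrected for transcript length and library size. The ratio is log2((M10–11 FPKM + 1)/(M12–13 FPKM + 1)), so that a positive value means a higher level in M10–11, and on this scale the change of a low gene is understated. A difference was counted when it was at least 4-fold, which is a log2 ratio of 2 or more in either direction, and a gene was counted as switching when it had at least 10 FPKM on one side and less than 1 FPKM on the other.

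The study dissected the midgut of feeding larvae into 8 subsections, M1 to M12–13, each sequenced once. The larvae, labelled w1118, were the progeny of a cross between a line with GAL4 under the promoter of the P450 gene *Cyp4d2* and w1118 flies with a nuclear UAS-*GFP*, so all 8 libraries share both transgenes and none was treated. Green fluorescence in M2, M4, M6, M9 and M12–13 guided the cuts, which means that the unlit M10–11 was cut out between lit neighbors. RNA came from whole pieces of gut pooled over many larvae, with visceral muscle, enteroendocrine cells and progenitor cells beside the enterocytes, and fewer cells of a type and less RNA per cell cannot be told apart. With 1 library per subsection no difference below has a replicate check, no test was possible, and the depth behind a single value is unknown because the files hold no counts.

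The larval midgut digests food in sequence. Its enterocytes secrete proteases, lipases and glycosidases into the lumen and take up the products through transporters of the brush border, while enteroendocrine cells release peptide hormones and the copper cells of the middle midgut acidify the lumen. The Jonah genes encode a large family of chymotrypsin-like serine proteases of the gut, whereas trypsin-like proteases, carboxypeptidases and aminopeptidases cleave proteins and peptides at other positions.

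Most genes crossed the boundary with little change. Of the 4051 genes, 3554 (87.7%) lay within 2-fold, the median log2 ratio was 0.02 and the median absolute log2 ratio was 0.28. At least 4-fold differences were found for 111 genes higher in M10–11 (2.74% of those tested) and 97 genes higher in M12–13 (2.39%), together 208 genes or 5.13%. Rescaling both libraries to the same summed FPKM (676723 in M10–11 and 542365 in M12–13 as deposited) lowered the median log2 ratio by 0.31 and changed this split to 79 and 117 genes, so the balance between the directions depends on the scale. The switching genes were fewer, 7 on in M10–11 and off in M12–13 (0.173%) and 28 in the reverse direction (0.691%).

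With the same measure, the next boundary forward, between M9 and M10–11, had 2.33% of genes past 4-fold, and the one before it, M7–8 against M9, had 7.68%. The boundaries around the copper cell region held the largest shares of the 7. They were 23.4% between M3–5 and M6 and 10.4% between M6 and M7–8. Both use the M6 library, for which the paper reports RNA more prone to degradation and fewer reads than for the other samples. The part of this in these shares was not tested. The anterior boundaries had 3.55% (M1 against M2) and 2.57% (M2 against M3–5). Neighboring boundaries share a library, and these percentages are descriptions of single libraries.

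The genes of the boundary held very different parts of the 2 transcriptomes. The 111 genes higher in M10–11 made up 30.3% of the summed FPKM there and 2.35% in M12–13. The 97 genes higher in M12–13 went from 0.530% to 11.8%. The 3 genes with the highest levels in M10–11 were *Jon66Ci*, *Jon99Ciii* and *Jon99Cii*, at 28102, 27024 and 26335 FPKM, which fell in rank to positions 131, 42 and 40 in M12–13. There the 3 highest were the metallothionein *MtnA* (23102 FPKM) and the acyl-CoA-binding proteins *CG5804* (12974 FPKM) and *CG8628* (9992 FPKM).

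**Figure D1:**
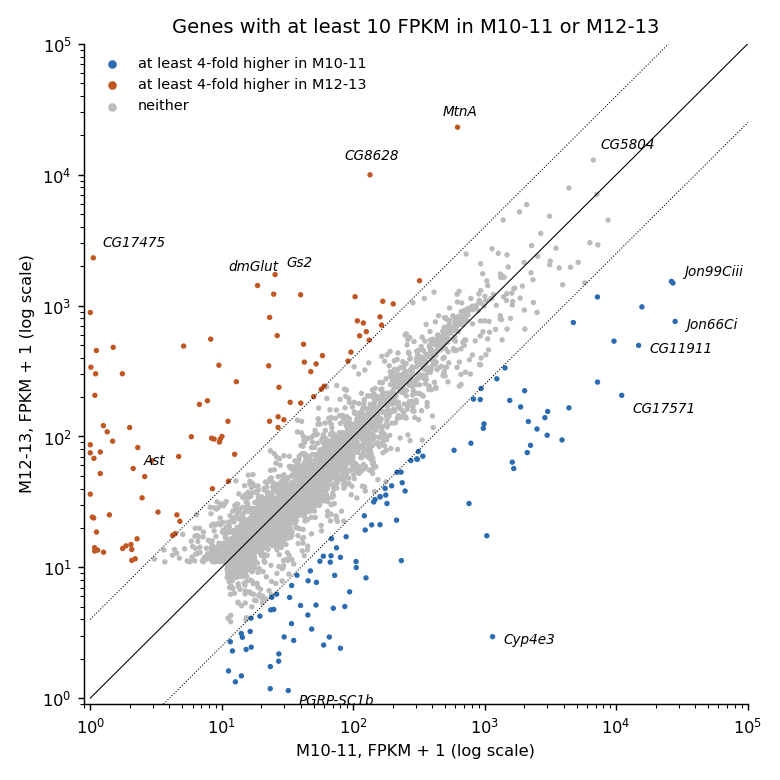
Level of each of the 4051 genes in M10–11 (horizontal axis) and M12–13 (vertical axis), as FPKM + 1 on log scales, 1 library each; the solid line marks equal levels and the dotted lines a 4-fold difference. The 111 blue genes lie below the lower dotted line and the 97 orange genes above the upper one, with a group of orange genes near 0 FPKM in M10–11 at the left edge.

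The labels were examined with *Ast*, *CG5804* and other marker genes. *Ast*, which encodes the peptide hormone allatostatin A of enteroendocrine cells, stood at 1.12 FPKM in M10–11 against 55.9 in M12–13 (log2 ratio −4.75). No subsection from M1 to M9 exceeded 0.167 FPKM for this gene. *CG5804* had 6704 and 12974 FPKM (−0.95), higher in M12–13 but under 4-fold. Its highest level was 19936 FPKM in M2, so it is not particular to M12–13. *Cyp4d2* itself had 123 FPKM in M10–11 and 37.3 FPKM in M12–13 (1.69), with 118 FPKM in M9, so its transcript was not lower in the section that the GFP did not mark. The 7 listed markers of the hindgut, the organ next in line, were at or near 0 in both libraries. The highest of the 7 reached 0.139 FPKM in M10–11 and 0.0935 FPKM in M12–13. Hindgut RNA was not examined beyond these 7 genes. The fat body list summed to 0.293 and 2.51 FPKM, and of the 10 Malpighian tubule genes only *Ncc69*, a sodium, potassium and chloride cotransporter, passed 10 FPKM (1.20 in M10–11 and 10.6 in M12–13). Muscle genes were different. All 15 of 16 listed muscle genes that passed the minimum were higher in M12–13, from *Act87E* (log2 ratio −0.37) to *Mlc2* (−1.40), and their summed level was 1481 FPKM in M10–11 and 2967 FPKM in M12–13. None reached 4-fold, and the part of muscle RNA in the results below was not tested.

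The Jonah proteases were the group with the highest levels on the anterior side of the boundary. Of 16 listed genes, 14 passed the minimum and 13 were at least 4-fold higher in M10–11, with none past 4-fold in M12–13, beside 2.74% and 2.39% of all genes tested. Their median log2 ratio was 4.52, against 0.02 over all genes tested. Summed over the list, the level dropped from 107105 FPKM (15.8% of the library) to 4765 FPKM (0.879%), which is 22.5-fold lower.

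*Jon66Ci* had 33119 FPKM in M9, 28102 in M10–11 and 756 in M12–13 (log2 ratio 5.21). *Jon65Aii* had 7001, 7218 and 259 FPKM in the same order (4.79). *Jon25Biii* had 20568, 3876 and 93.1 FPKM (5.37), so part of its fall came before this boundary. *Jon99Ciii* and *Jon99Cii* had the highest Jonah levels left in M12–13, 1488 and 1531 FPKM. They too had fallen earlier, from 112430 and 110620 FPKM in M9 to 27024 and 26335 in M10–11. These neighbors are near-identical copies whose reads the counting could have divided between them, so their separate values are uncertain. The 13 genes kept between 2.40% and 9.66% of their M10–11 level in M12–13, with a median of 3.86%, a range that describes only the members past the limit. The exception was *Jon74E*, with 7.17 FPKM in M10–11 and 27.8 FPKM in M12–13 (−1.82). Below the minimum, *Jon25Bii* had 5.10 and 0.0826 FPKM and *Jon25Bi* 0.935 and 0.0437 FPKM.

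Serine proteases outside the Jonah names went both ways. Of 252 matched genes, 37 passed the minimum, 10 were at least 4-fold higher in M10–11, 8 were at least 4-fold higher in M12–13, and 19 were neither, beside 2.74% and 2.39% of all genes, with a median log2 ratio of −0.02. The 10 on the anterior side included *CG17571* (11024 FPKM in M10–11 and 205 FPKM in M12–13, 5.74), *CG10472* (9633 and 534 FPKM, 4.17) and *yip7* (2107 and 74.3 FPKM, 4.81). *CG11911* (14821 and 496 FPKM, 4.90) and *CG11912* (2500 and 113 FPKM, 4.45) are neighbors that the table places in a shared locus. Except for the trypsin *zetaTry* (201 and 1030 FPKM, −2.35), the 8 on the posterior side followed one another among the tested genes along the genome.

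These 7 neighbors, *CG17477*, *CG31269*, *CG31265*, *CG17475*, *CG4053*, *CG31266* and *CG31267*, form a run on chromosome arm 3R from 12951810 to 12961005 (coordinates of the deposited table, FlyBase release 5). The run is unbroken among the tested genes. *CG17475* had the largest log2 ratio of the boundary, with 0.0550 FPKM in M10–11 and 2317 FPKM in M12–13 (−11.10). *CG31269* had 0.113 and 453 FPKM (−8.67) and *CG17477* had 0.259 and 120.0 FPKM (−6.59). These 3 had at most 1.15 FPKM in each of the other 7 subsections. The other members of the run were expressed further forward as well. *CG31267* had 38.8 FPKM in M10–11 and 1211 in M12–13, and *CG31266* had 22.1 and 812 FPKM. *CG31265* had 482 FPKM in M9, 40.9 in M10–11 and 506 in M12–13, so that its level dipped between 2 similar peaks, and *CG4053* had the smallest ratio of the run (59.0 and 241 FPKM, −2.01).

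**Figure D2:**
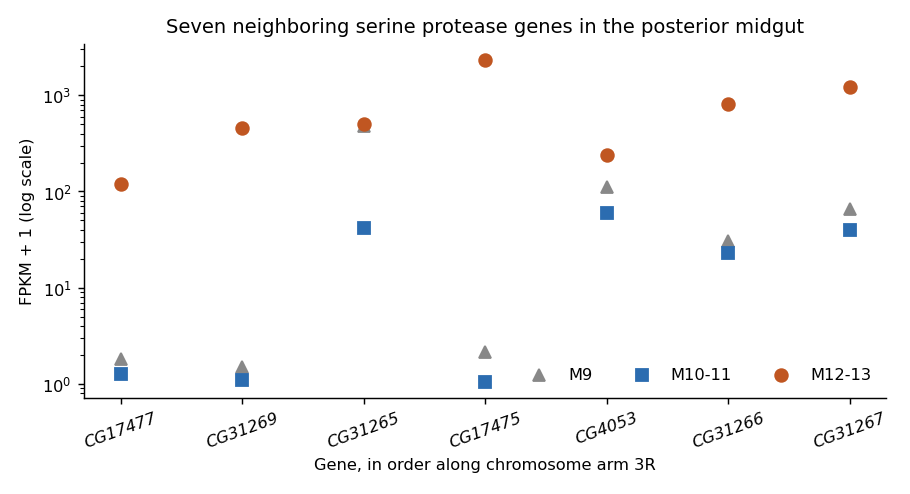
FPKM + 1 (log scale) of 7 neighboring serine protease genes in M9 (gray triangles), M10–11 (blue squares) and M12–13 (orange circles), 1 library each, in order along chromosome arm 3R. Every M12–13 value lies above the M10–11 value, by the most for *CG17475* (0.0550 and 2317 FPKM), and the M9 value of *CG31265* (482 FPKM) is close to that of M12–13 (506 FPKM).

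The opposite run lies on chromosome arm 3L, 6028316 to 6056010, and holds 6 genes that were all higher in M10–11: *yip7*, *Jon65Aiv*, *Jon65Aiii*, *Jon65Aii*, *Jon65Ai* and *CG10472*. *Jon65Ai* had 2987 and 101 FPKM (4.87), *Jon65Aiv* had 1663 and 55.9 FPKM (4.87) and *Jon65Aiii* had 1621 and 62.6 FPKM (4.67). The 6 shared their step at the boundary but not their profile further forward. In M1, *yip7*, *Jon65Aiv* and *Jon65Aiii* had 39237, 36235 and 21030 FPKM, whereas *Jon65Aii*, *Jon65Ai* and *CG10472* had 10.1, 9.51 and 19.0 FPKM.

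Counting neighbors among the tested genes only, in the order of the reference annotation, 10 runs of at least 3 genes past 4-fold in the same direction were found. Genes under the minimum that lie between members of a run were skipped. *Jon99Ciii*, *Jon99Cii* and *Jon99Ci* (3R, 25747938 to 25751911) formed another protease run higher in M10–11, with *Jon99Ci* at 104 and 10.1 FPKM (3.25). *CG9826*, *CG9825* and *CG30265* on 2R formed a further one, at 92.9 and 5.49, 305.9 and 65.9, and 44.4 and 6.88 FPKM in M10–11 and M12–13, of which *CG9825* (2.20) fell under the limit (1.88) with both libraries set to the same summed FPKM. On 2R, *Jon44E* (47.3 and 2.37 FPKM, 3.84) had *PGRP-SC1a* and *PGRP-SC1b* as the next genes in the run. The remaining runs were higher in M12–13 and are described with their families.

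Among the other peptidases, the metallocarboxypeptidases were mostly higher on the posterior side. Of 19 listed members of this family, which removes amino acids from the C-terminal end of peptides, 9 passed the minimum, 6 were at least 4-fold higher in M12–13 and 1 in M10–11, beside 2.39% and 2.74% of all genes (median log2 ratio −2.86). *CG32379* had 0.0842 FPKM in M10–11 and 205 FPKM in M12–13 (−7.57), *CG18417* had 0.994 and 116 FPKM (−5.88), and *CG14820* had 21.7 and 346 FPKM (−3.93). *CG32379*, *CG18417* and *CG8560* (1.27 and 15.5 FPKM) were under 10 FPKM in M10–11 and passed the minimum only through M12–13. The minimum therefore set their direction. The member higher in M10–11, *CG17633*, was by far the most abundant of the family there. It had 4373 FPKM in M10–11 and 165 FPKM in M12–13 (4.72). The summed level of the family was thus higher in M10–11 (4559 FPKM) than in M12–13 (1637 FPKM) although most members went the other way.

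Of 18 matched M1 aminopeptidases, which cleave amino acids from the N-terminal end, 10 passed the minimum and 2 were at least 4-fold higher in M12–13 (2.39% of all genes), *CG32473* (23.9 and 1224 FPKM, −5.62) and its neighbor *CG8774* (107 and 764 FPKM, −2.83). The members went both ways around a median log2 ratio of 0.00, or −0.31 with both libraries set to the same summed FPKM, and on the other side *CG31198* had 4502 and 1965 FPKM (1.20) and *CG31233* had 2021 and 661 FPKM (1.61). *CG43208* (listed at 0 in M10–11 and 85.5 FPKM in M12–13) shares its locus with *CG32473*, and reads of the 2 entries cannot be told apart with certainty. A run on 2L, 15613948 to 15629552, held the astacin-like metalloproteases *CG15254* (0.346 and 107 FPKM, −6.33), *CG15253* (9.03 and 99.0 FPKM, −3.32) and *CG7631* (125 and 632 FPKM, −2.33).

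Lysosomal-type glycosidases appeared almost entirely in the last subsection. All 5 of 10 listed mannosidases and galactosidases that passed the minimum were at least 4-fold higher in M12–13, beside 2.39% of all genes, with a median log2 ratio of −6.07. All 5 were under 10 FPKM in M10–11 and passed the minimum only through M12–13. Their shared direction was therefore set by the minimum and is no separate result. No galactosidase passed it. They were the alpha-mannosidases *LM408* (7.24 FPKM in M10–11 and 554 in M12–13), *CG9468* (4.13 and 490.1 FPKM), *CG9466* (0.754 and 300.5 FPKM), *CG5322* (3.70 and 69.3 FPKM) and *CG9463* (0.0371 and 23.2 FPKM). The list summed to 16.3 FPKM in M10–11 and 1447 FPKM in M12–13, 88.9-fold higher. In M1 to M9 none of these 5 exceeded 0.261 FPKM. *CG9463*, *CG9466* and *CG9468* form a run on 2L, 8765273 to 8781252, and as members of a similar family they may share reads. *CG9465* lies between *CG9463* and *CG9466* but did not pass the minimum, with 0 FPKM in M10–11 and 0.862 in M12–13.

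**Figure D3:**
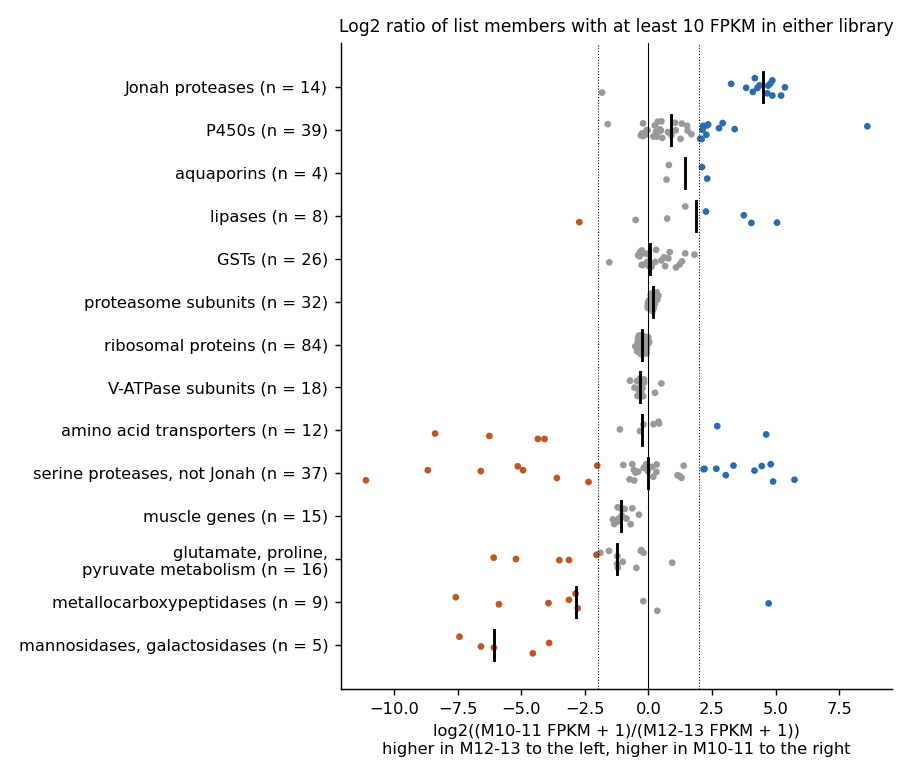
Log2 ratio of the members of 14 gene lists with at least 10 FPKM in either library; each point is a gene, the black bar is the median of the list, and dotted lines mark 4-fold (blue, higher in M10–11; orange, higher in M12–13). The Jonah proteases lie at a median of 4.52 and the mannosidases and galactosidases, of which only mannosidases passed the minimum, at −6.07. The 84 ribosomal protein genes lie between −0.52 and 0.03.

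Lipases past the limit were mostly higher in M10–11. Of 31 matched lipases, 8 passed the minimum, 4 were at least 4-fold higher in M10–11 and 1 in M12–13, beside 2.74% and 2.39% of all genes (median log2 ratio 1.85). The secreted lipase *mag* (*magro*) had 2149 and 129 FPKM (4.05), *CG5966* had 78.9 and 1.41 FPKM (5.05) and *CG6296* had 338 and 69.7 FPKM (2.26, or 1.94 with both libraries set to the same summed FPKM), against *Lip4* with 46.6 and 312 FPKM (−2.72). *CG5966* and *CG17191* (22.4 and 0.742 FPKM, 3.75) were under 10 FPKM in M12–13 and passed the minimum only through M10–11. The minimum therefore set the direction of these lipases. The lipophorin receptor *LpR1*, which binds the lipid carrier of the hemolymph, had 64.8 and 1.93 FPKM (4.49). Of 9 genes of sterol and lipid uptake, 1 passed 4-fold (2.74% of all genes), *Npc2f* (785 and 87.8 FPKM, 3.15), and the others lay between −1.30 and 1.15. Among them *Npc1b*, the sterol transporter of the gut, had 805 and 418 FPKM (0.94).

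The acyl-CoA-binding proteins, which carry activated fatty acids inside the cell, included *CG8628*, which with *CG5804* was among the 3 highest genes in M12–13. *CG8628* stood at 133 FPKM in M10–11 against 9992 in M12–13 (−6.22), and its highest level elsewhere was 305.6 FPKM in M6. None of the other 6 tested members passed 4-fold, so 1 of 7 stands beside 2.39% of all genes. *Dbi* went the opposite way to *CG5804*, with 8688 and 4502 FPKM (0.95).

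Amino acid transporters past the limit were found in both directions. Of 12 that passed the minimum, 2 were at least 4-fold higher in M10–11 and 4 in M12–13, beside 2.74% and 2.39% of all genes (median log2 ratio −0.27). *NAAT1*, a nutrient amino acid transporter, went from 0.0113 FPKM in M10–11 to 337 in M12–13 (−8.39), and its highest level elsewhere was 0.0847 FPKM. *dmGlut* had 17.7 and 1424 FPKM (−6.25), *CG9413* had 11.9 and 261 FPKM (−4.34) and *path* (*pathetic*) had 4.87 and 98.5 FPKM (−4.08). On the other side *CG8785* had 759 and 29.7 FPKM (4.63), and the glutamate transporter *Eaat1* had 14.3 and 1.35 FPKM (2.70). The summed level of the list was 1106 FPKM in M10–11 and 2484 FPKM in M12–13. Of 11 sugar transporters, *Glut1* (3.56 and 24.1 FPKM, −2.46) and *Tret1-1* (3.43 and 17.1 FPKM, −2.03), a trehalose transporter, passed 4-fold. Both were higher in M12–13 (2.39% of all genes). They were under 10 FPKM in M10–11 and passed the minimum only through M12–13, which set their shared direction.

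Enzymes listed under glutamate, proline and pyruvate metabolism that passed the limit were all higher in M12–13. Of 16 tested genes 5 were at least 4-fold higher in M12–13 and none in M10–11, beside 2.39% and 2.74% of all genes, and the median log2 ratio was −1.23. *Gs2*, glutamine synthetase, had 24.5 FPKM in M10–11 and 1725 in M12–13 (−6.08), and *Gdh*, glutamate dehydrogenase, had 102 and 1169 FPKM (−3.50). *Sodh-1*, a sorbitol dehydrogenase, had 8.51 and 350 FPKM (−5.20) and is counted in the list although it lies outside the pathways that name it. This gene passed the minimum only through M12–13. *Pdk*, the kinase that inhibits pyruvate dehydrogenase, had 26.3 and 237 FPKM (−3.12). *CG1640*, an alanine aminotransferase, completed the 5 (131 and 544 FPKM, −2.04). Under the 4-fold limit, *Men* (malic enzyme) had 283 and 1051 FPKM (−1.89) and *Pepck* had 638 and 1286 FPKM (−1.01). *Ggt-1*, a gamma-glutamyl transferase, had 0.192 and 75.1 FPKM (−6.00), but the authors' software marked its M12–13 estimate as failed.

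The enzymes that build glutathione showed the opposite pattern, a set picked after its values were seen. *Gclm* and *Gclc*, the subunits of glutamate-cysteine ligase, had 584 and 77.4 FPKM (2.90) and 304 and 66.4 FPKM (2.18). The glutathione synthetase copies *GS* and *CG32495* were listed with the same values, 159 and 33.6 FPKM (2.21), and as near-identical copies they may share reads. With both libraries set to the same summed FPKM, *Gclc* (1.86) and both copies (1.90) fell under the 4-fold limit. The 26 tested glutathione S-transferases, which use glutathione to conjugate xenobiotics, did not follow: none passed 4-fold, the range was −1.54 to 1.81, and the median log2 ratio was 0.08, or −0.23 with both libraries set to the same summed FPKM.

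Cytochrome P450s, oxidative enzymes of xenobiotic and hormone metabolism, fell on the anterior side wherever they passed the limit. Of 39 tested, 11 were at least 4-fold higher in M10–11 and none in M12–13, beside 2.74% and 2.39% of all genes. The median log2 ratio was 0.90. *Cyp4e3*, *Cyp6a8*, *Cyp4ac3*, *Cyp12d1-p*, *Cyp12d1-d* and *Cyp305a1* were under 10 FPKM in M12–13. They passed the minimum only through M10–11, which set their direction. With both libraries set to the same summed FPKM, 6 of the 11 stayed past the limit, and *Cyp9b2*, *Cyp28a5*, *Cyp4e2*, *Cyp12a5* and *Cyp305a1* did not. *Cyp4e3* had the largest ratio of all genes higher in M10–11, with 2709 FPKM in M9, 1148 in M10–11 and 1.95 in M12–13 (8.60). The other 10 were less extreme. *Cyp9b2* had 925 and 190.4 FPKM (2.27), *Cyp28a5* had 821 and 192 FPKM (2.09), *Cyp6w1* had 159 and 20.2 FPKM (2.92) and *Cyp6a8* had 44.2 and 3.32 FPKM (3.39). The near-identical pair *Cyp12d1-p* and *Cyp12d1-d*, at 15.5 and 2.23 and at 13.4 and 1.92 FPKM, may share reads and their separate levels are uncertain. Several abundant P450s crossed with little change, such as *Cyp4ad1* (384 and 471 FPKM, −0.30) and *Cyp12a4* (218 and 260 FPKM, −0.25).

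Of 17 tested UDP-glycosyltransferases, 3 were at least 4-fold higher in M10–11, *Ugt86Dd* (137 and 20.1 FPKM, 2.71), *CG5999* and *CG5724*, and none in M12–13, beside 2.74% and 2.39% of all genes, with a median log2 ratio of −0.08. *CG5724* (2.07) fell under the limit at the same summed FPKM (1.75). Of 19 ABC transporters, 2 passed the limit, both higher in M10–11 (2.74% of all genes): *CG11898* (58.6 and 1.55 FPKM, 4.55) and *CG4562* (22.6 and 3.73 FPKM, 2.32). These 2 passed the minimum only through M10–11, which set their shared direction.

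The metal handling genes past the limit were both metallothioneins, small proteins that bind copper and other metals, and only *MtnA* was abundant. *MtnA* had 621 FPKM in M10–11 and 23102 in M12–13 (−5.21), and *MtnB* had 0.397 and 24.2 FPKM (−4.17). *MtnD* (346 and 1135 FPKM, −1.71) and *MtnE* (932 and 2089 FPKM, −1.16) lay in the same direction under the limit. The ferritin subunits lay in the other one, with *Fer1HCH* at 938 and 397 FPKM (1.24) and *Fer2LCH* at 1069 and 458 FPKM (1.22). No other gene of the 18 tested passed 4-fold, so the 2 past it stand beside 2.39% of all genes.

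The profile of *MtnA* along the gut had its peak in M6, the copper cell subsection, at 50388 FPKM, then 35566 in M7–8 and 1225 in M9. *MtnB* peaked at 18448 FPKM in M6. Some other genes were also high further forward, low in M10–11 and higher again in M12–13. *Gs2* had 518 FPKM in M6 and 1.67 in M9, *CG7714* had 9749 in M3–5, 0.494 in M10–11 and 479 in M12–13 (−8.33), and *CG4734* had 18216 in M3–5 and 12.05 in M12–13. The defining genes of copper cells were near 0 on both sides of the boundary: *lab* had 0.134 and 0.498 FPKM and *Vha100-4* had 0.302 and 0.0302 FPKM in M10–11 and M12–13. The peroxiredoxin copies *Prx2540-1* (167 and 1079 FPKM, −2.69) and *Prx2540-2* (319 and 1549 FPKM, −2.28) and the related *CG12896* (118 and 736 FPKM, −2.63) had 5717, 7156 and 3300 FPKM in M3–5, and as similar copies they may share reads. *Prx2540-1* and *CG12896* form a run on 2R, 6307919 to 6315420, with *CG33474* (3.23 and 16.6 FPKM, −2.05).

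**Figure D4:**
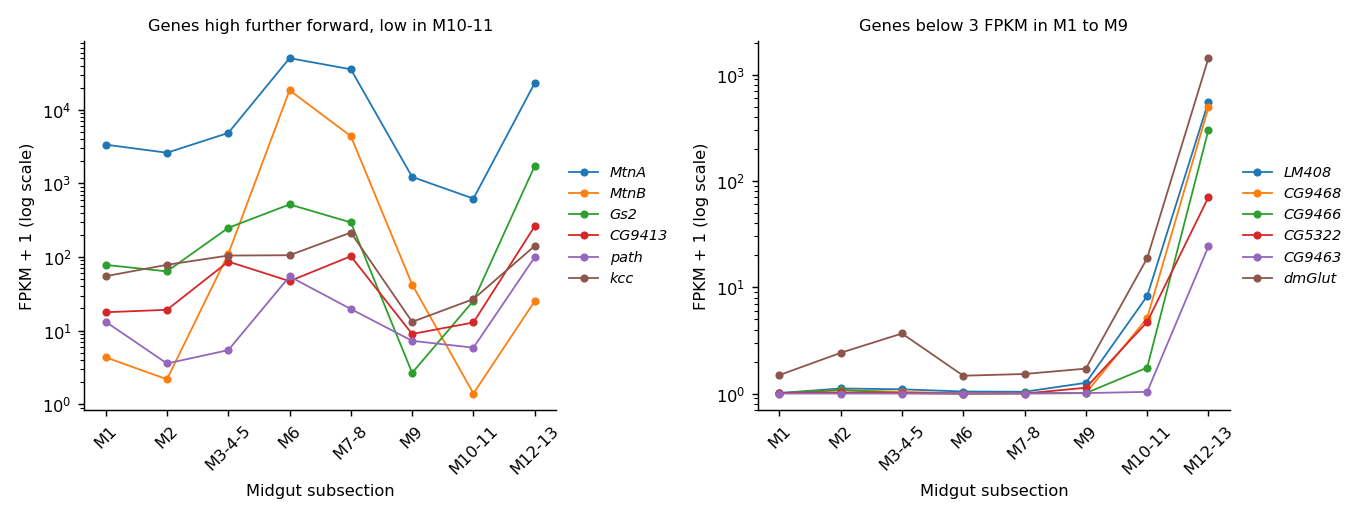
FPKM + 1 (log scale) in the 8 subsections from anterior to posterior, 1 library each. Left, genes with higher levels further forward that were low in M10–11 and high in M12–13, such as *MtnA* (50388, 621 and 23102 FPKM in M6, M10–11 and M12–13); right, the 5 mannosidases and *dmGlut*, all below 3 FPKM in M1 to M9.

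Ion and water transport changed in a few genes. Of 14 tested ion pumps, exchangers and carbonic anhydrases, 1 was at least 4-fold higher in M10–11 and 3 in M12–13, beside 2.74% and 2.39% of all genes. *Nha1*, a sodium-proton antiporter, had 247 FPKM in M10–11 and 37.3 in M12–13 (2.70), while the potassium-chloride cotransporter *kcc* had 25.8 and 141 FPKM (−2.40) and the carbonic anhydrase *CG3940* had 0.115 and 17.6 FPKM (−4.06) after 91.3 FPKM in M9. Both aquaporin-family genes past the limit were higher in M10–11, the water channel *Drip* (176 and 34.7 FPKM, 2.31) and *CG4019* (36.3 and 7.69 FPKM, 2.10), and the other 2 tested members lay at 0.80 and 0.71. With both libraries set to the same summed FPKM neither gene passed 4-fold (1.996 and 1.81), so the count went from 2 (2.74% of all genes) to 0. *CG4019* had passed the minimum only through M10–11. The 18 subunits of the proton pump V-ATPase lay between −0.72 and 0.51.

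Other hormone genes of the gut differed less than *Ast*. *CCHa2* had 58.3 and 11.2 FPKM (2.28), *Dh31* 18.1 and 5.08 FPKM (1.65), *Ast-C* 14.1 and 5.25 FPKM (1.27) and *Tk*, tachykinin, 5.5 and 16.5 FPKM (−1.44). Of these only *CCHa2* passed 4-fold, and it did not with both libraries set to the same summed FPKM (1.98). With *Ast*, 1 of the 8 tested genes of this list was past the limit in each direction, beside 2.74% and 2.39% of all genes. The peptide processing enzyme *Phm* had 23.7 and 22.5 FPKM. Outside this list, the insulin-like peptide gene *Ilp3* had 33.0 and 6.26 FPKM (2.23) and *ImpL2*, which encodes a secreted antagonist of insulin signaling, had 73.6 and 13.1 FPKM (2.41), of which *Ilp3* fell under the limit at the same summed FPKM (1.94).

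Of 10 transcription factors of gut regions that passed the minimum, 1 passed 4-fold in each direction, beside 2.74% and 2.39% of all genes. The homeobox gene *exex* had 33.9 FPKM in M9, 32.9 in M10–11 and 2.71 in M12–13 (3.19). The zinc finger gene *drm* (*drumstick*) had 0.0619 FPKM in M10–11 and 22.8 in M12–13 (−4.49), and at most 0.113 FPKM in every other subsection. Its relatives of the odd-skipped family were higher on the same side, *bowl* at 12.5 and 35.4 FPKM (−1.43) and *odd* and *sob* below the minimum at 0.00930 and 6.50 FPKM and 0.00830 and 2.75 FPKM. *nub* had 40.6 and 14.3 FPKM (1.44), *bab2* had 7.28 and 24.7 FPKM (−1.63) and *cad*, a posterior gut regulator, had 26.6 and 40.7 FPKM (−0.59). Below the 10 FPKM minimum, the homeotic gene *tsh* had 7.61 and 0.617 FPKM and the cofactor *hth* 7.88 and 0.873 FPKM. *wntD*, a Wnt-family ligand, had 0.137 and 12.5 FPKM (−3.57), the only one of 8 tested Wnt and Dpp pathway genes past the limit, beside 2.39% of all genes.

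Defense genes supplied part of the few genes that switched off. *PGRP-SC1b* had 31.1 FPKM in M10–11 and 0.143 in M12–13 (4.81), and *PGRP-SC1a* had 22.4 and 0.181 FPKM (4.31). Both encode secreted amidases that degrade peptidoglycan, and as near-identical copies they may share reads. *PGRP-LB*, another amidase, had 153 and 45.7 FPKM (1.72). The other 5 genes that switched off were *Ag5r* (26.1 and 0.915 FPKM), the lipase *CG17191* (22.4 and 0.742 FPKM), *CG33494* (13.1 and 0.479 FPKM), *CG14961* (11.7 and 0.333 FPKM) and *CG5538* (10.3 and 0.614 FPKM), so none of the 7 was above 31.1 FPKM.

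The 28 genes that switched on reached higher levels. Besides those given above they included *CG30047* (0.0984 and 300.4 FPKM, −8.10), *CG7881* (0.479 and 91.1 FPKM, −5.96), *CG33012* (0.0664 and 67.1 FPKM, −6.00) and *CG6293* (0.191 and 51.1 FPKM, −5.45). At the low end were *Nep1* (0.764 and 12.9 FPKM), the multicopper oxidase *Mco1* (0.0814 and 12.3 FPKM), *BG642312* (0.0783 and 13.1 FPKM) and *CG13159* (0.868 and 13.6 FPKM), the last beside *CG33012* and *CG13160* (5.77 and 175 FPKM) in a run on 2R. *CG42714* and *FBtr0077238* were listed at 0 in M10–11 and at 74.0 and 35.2 FPKM in M12–13. *mt:CoI*, also listed at 0 in M10–11 and at 885 FPKM in M12–13, was marked as low data by the authors' software and had 5181 FPKM in M1 and 1.78 in M2, so its value is not a reliable level. Of the 28, 17 were below 1 FPKM in the 6 other subsections as well, beside 23 (0.568%) of all 4051 genes tested. For these 17, M12–13 was the single subsection of the 8 in which they passed that level.

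**Figure D5:**
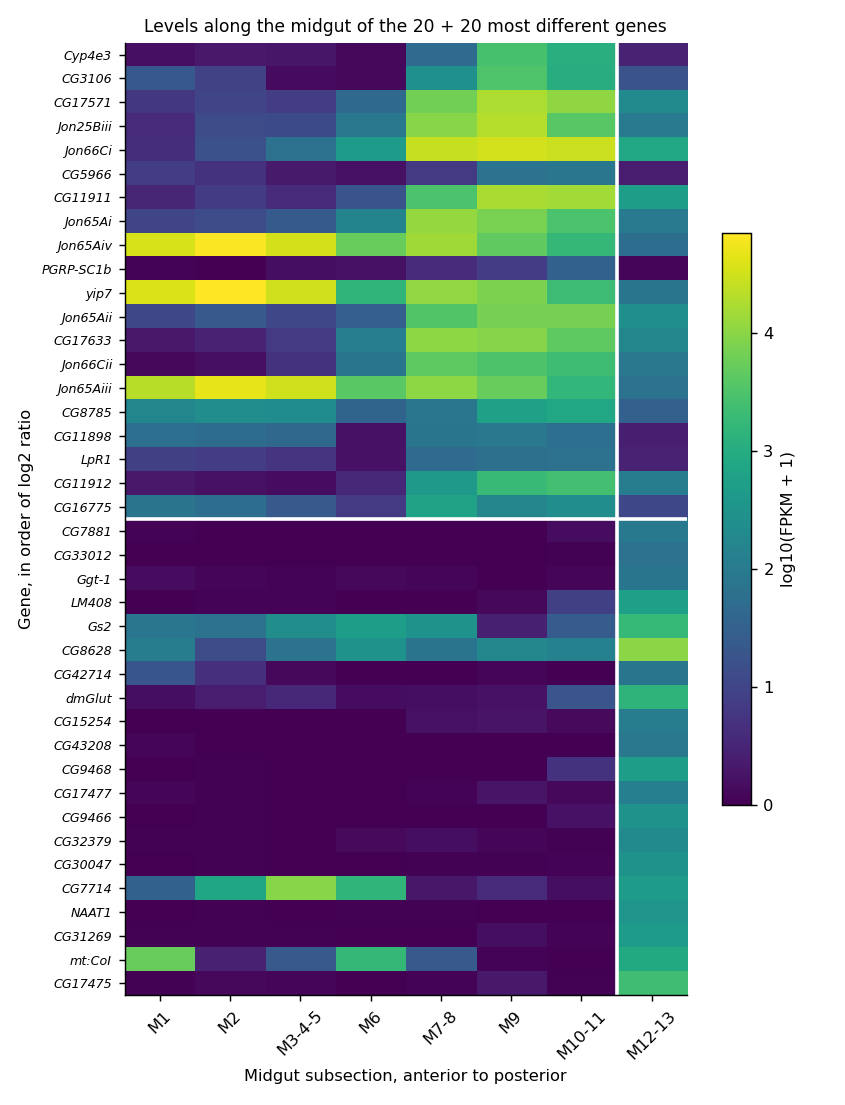
Levels of the 20 genes with the largest log2 ratio in each direction across the 8 subsections, colored by log10(FPKM + 1); the horizontal white line separates genes higher in M10–11 (top, *Cyp4e3* first) from those higher in M12–13 (bottom, *CG17475* last), and the vertical line marks the boundary. Most of the upper genes are bright from M7–8 or M9 to M10–11, and most of the lower ones are dark in every subsection but M12–13.

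Along the gut, of the 111 genes higher in M10–11, 100 (90.1%) had at least 10 FPKM in M9, a share near the 90.0% of all genes tested, and 36 had their highest level of the 8 subsections in M9, 27 in M10–11 and 22 in M2. Of all 4051 genes tested, 392 had their highest level in M9, 396 in M10–11 and 925 in M2. Of the 97 genes higher in M12–13, 35 (36.1%) had at least 10 FPKM in M9 and 78 had their highest level in M12–13, and 23 were below 1 FPKM in all 6 subsections from M1 to M9. Over all 4051 genes tested, the same values were 90.0%, 502 genes and 23 genes (0.568%). The M10–11 and M12–13 levels chose these genes, so these counts describe the members. Beyond the lists, *CG3106* (1037 and 16.4 FPKM, 5.90), *CG16775* (231 and 10.3 FPKM, 4.37) and *Ag5r2* (15708 and 978 FPKM, 4.01) were further large differences toward M10–11, and *CG13101* (1.30 and 81.3 FPKM, −5.16) and *CG8129* (25.4 and 589 FPKM, −4.48) toward M12–13. In all, 59 of the 111 and 65 of the 97 genes are named in the table by a CG or CR number, with no share over all genes tested beside these counts.

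Genes of general cell function stayed under the 4-fold limit. The 84 cytoplasmic ribosomal protein genes lay between −0.52 and 0.03, so nearly all leaned toward M12–13. Their median log2 ratio was −0.24, or −0.56 with both libraries set to the same summed FPKM. None of the 32 proteasome subunits passed 4-fold either. Their median was 0.18 and turned to −0.14 with both libraries set to the same summed FPKM. The 14 brush border and cytoskeleton genes lay between −0.71 and 0.50. The 4-fold limit itself separated close values, with *CG32751* just inside on the M10–11 side (938 and 232 FPKM, 2.01) and *CG17147* just outside (177 and 44.0 FPKM, 1.98), and *CG5150* just inside on the M12–13 side (56.1 and 229 FPKM, −2.01) and *Nplp4* just outside (5.44 and 24.3 FPKM, −1.97).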

How the data were processed

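RNA from 8 dissected midgut subsections was sequenced as 1 library each. The authors filtered reads, mapped them to the annotated fly genome (FlyBase release 5) with TopHat2 2.0.6, and made the deposited FPKM values with Cuffdiff 2.0.2 using upper-quartile normalization and corrections for multiply mapped reads and sequence bias. The libraries were unstranded, so reads of overlapping and antisense genes cannot be told apart. In the deposited table every 95% interval around a level had a lower bound of 0 in both libraries, so the intervals of all 4051 genes overlapped. FPKM holds no counts, and no count test was run. Of the tested entries, 44 carried a status other than OK, and 1 entry without a name was left out.

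Log2 ratios used a pseudocount of 1 and a minimum of 10 FPKM in either library. A gene past the limit with under 10 FPKM on its lower side passed the minimum only through the other side, which set its direction. Gene names, order and median transcript lengths came from the reference annotation (3892 of 4051 genes matched), coordinates from the deposited table. Named genes were the 20 largest ratios in each direction, all switching genes, the 3 highest of each library, runs of at least 3 neighbors, *Cyp4d2* and members of the gene lists, and genes outside this rule were chosen after their values were seen. The lists were written from general knowledge, with RefSeq synonyms adding serine proteases and glycosyltransferases, and some were completed after values had been seen. The members and lists were chosen with earlier results of these data known. The calculation was tested on simulated data. Python 3.11.15 with pandas 2.3.3 was used.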

Additional observations from a re-analysis of the deposited data

How the results depend on the processing

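The counts of 111 and 97 genes stayed within 1.5 times of these values under a pseudocount of 0.1 (118 and 101), rescaling to the same summed FPKM (79 and 117), a median-ratio scale (109 and 97), minimums of 5 FPKM (123 and 107) and 20 FPKM (99 and 83) or no minimum (129 and 112), leaving out entries with a status other than OK (110 and 95) and removing the trend with transcript length (106 and 96). A 2-fold limit gave 261 and 236 genes and an 8-fold limit 52 and 59, by construction. All 208 genes kept their direction under each of these settings, which was largely fixed in advance. The minimums, the status and the fold limits leave the ratio unchanged, and a pseudocount cannot reverse it. The rescalings lowered the median log2 ratio by only 0.31 and 0.02, and each of the 208 lay at least 2 from 0. The 7 genes that switched off became 19 with off set below 2 FPKM, 4 with off below 0.5 FPKM and 4 with a minimum of 20 FPKM, while the 28 that switched on ranged from 21 to 38. Log2 ratio and transcript length had a Spearman correlation of 0.15 across 3892 genes, which are not independent replicates; genes of up to 500 nt had a median of −0.25 (n = 123) and genes over 5000 nt one of 0.14 (n = 167). No paired analysis was possible because each subsection has 1 library. The missing replicates limit every value, and the precision of low levels is unknown.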
